A study of Mus musculus with 6 samples.

Results

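Ligands and receptors of the tumour necrosis factor (TNF) superfamilies were followed in BCR-ABL1-transformed pre-B cells of the mouse, with and without the transcription factor gene Etv5. Members were the genes whose single symbol in the array's annotation begins with Tnfsf or Tnfrsf and a digit, together with Tnf, Lta, Ltb, Ltbr, Fas, Fasl, Cd27, Cd40, Cd40lg, Cd70, Eda2r, Edar, Ngfr and Relt. This rule found 43 genes of 19938 named on the array, 15 ligands and 28 receptors, each with a single probe set. Total RNA was hybridised to 1-colour arrays in 6 samples: 3 Etv5 knockout and 3 Etv5 wild type. Both genotypes were of strain 129SvEv, carried BCR-ABL1, the constitutively active kinase made by the Philadelphia chromosome, and were labelled as pre-B cells and as BCR-ABL1-driven leukemia. The labels do not state the knockout allele, the age of the mice, or whether the 3 samples per genotype are separate mice, cultures or clones. The p-values therefore measure only how far these samples spread, and that spread may be technical.

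Most ligands of this superfamily are made as membrane proteins that assemble as trimers and can be shed, and they bind receptors built of cysteine-rich repeats. Receptors that carry a death domain can recruit FADD and caspase-8 or activate NF-kB, while the others recruit TRAF adaptors and feed the canonical or the alternative NF-kB pathway. In the B lineage, BAFF and its receptor BAFF-R support survival, CD40 carries help from T cells, and lymphotoxins made by B cells take part in building lymphoid tissue.

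The 6 arrays were alike in scale, with medians between 7.79 and 7.84 log2 units, and pairs of knockout arrays had r of 0.995 to 0.996 and pairs of wild-type arrays 0.994 to 0.997 across probe sets, which are not independent replicates. The array's annotation assigned a pair of probe sets to Etv5, and their positions in the genome were not checked. One had 8.97, 8.91 and 8.92 in the knockout and 9.30, 9.52 and 9.27 in the wild type, and was lower in the knockout (change -0.43 log2 units, limma adjusted p = 0.0467). The other had 11.67, 11.88 and 11.73 in the knockout and 11.48, 11.52 and 11.46 in the wild type, which is higher in each knockout sample but did not pass (change 0.28, adjusted p = 0.13). Which exons the allele lacks is not given, so neither probe set is known to test the deletion. Of 15 B cell precursor markers 14 were measured, and Pax5 rose (change 0.43, limma adjusted p = 0.0127) and Dntt fell (change -0.37, adjusted p = 0.0132). These markers had group means between 9.32 and 14.25 in the knockout and between 9.25 and 14.29 in the wild type, while those of T and NK cell markers lay between 5.67 and 7.85 in the knockout and between 5.63 and 7.76 in the wild type, with 0 of 13 passing. Over all genes, 4.43% passed. Of 14 myeloid markers 3 passed, and these, Ctss, Ly6g and Itgam, rose (changes 0.50, 1.14 and 0.60). Of the 14, 9 lay in the dimmest 40% of probe sets (mean below 7.32 log2 units), Ly6g among them. The other 11 did not pass. Among these Lyz2 was lower in each knockout sample (change -0.32, adjusted p = 0.473), and 7 of the 14 had a change below 0. Their summed linear signal was 3829 to 4305 in the knockout against 3272 to 3395 in the wild type, and without Ctss it was 2284 to 2619 in the knockout against 2136 to 2229 in the wild type. The part of these markers in the results below was not tested. Plasma cell markers moved both ways, 2 of 6 higher and 3 lower, beside 2.42% and 2.01% of all genes. Mzb1 and Irf4 rose (changes 1.05 and 0.52), and Jchain, Xbp1 and Prdm1 fell (changes -1.67, -0.54 and -0.28). Prdm1 was also among the dimmest 40% of probe sets, and Sdc1 did not pass.

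In the knockout, 3 ligand genes and 1 receptor gene rose and 1 ligand gene fell, by limma with Benjamini-Hochberg adjustment at 0.05 over all probe sets. Tnfsf8, the gene of CD30 ligand, rose 4.48-fold, Lta, the gene of lymphotoxin alpha, 1.96-fold, Tnf 1.40-fold and Tnfrsf13c, which encodes BAFF-R, 1.38-fold. Tnfsf11, the gene of RANK ligand, was 1.72-fold lower. These are 5 of 43 members, beside 4.43% of all genes, and the share higher among all genes was 2.42% and the share lower 2.01%. Without any 1 of the wild-type samples, or with the sample number as a block, 3 members passed: Tnfsf8, Lta and Tnfsf11. Of the ligands 4 of 15 passed, and of the receptors 1 of 28. The median change over the 43 members was 0.04 log2 units and over all genes -0.0039. In bulk RNA, more cells of a type and more RNA per cell cannot be told apart.

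The start regions of these 5 genes and of Ltb, which lies next to Tnf, are shown so that the genes that changed can be set beside their sequence. Each is the 300-base window of RefSeq in GRCm38.p6 from 250 bases before to 50 bases after an annotated start, read 5′ to 3′ on the gene's strand. Capitals mark matches, on either strand, to AGGAAG (the site bound by factors of the PEA3 subgroup, to which Etv5 belongs), CCGGAA (a core of many ETS factors), the NF-kB consensus and TATAAA; no matches overlap in the windows shown. The windows are chr4:63861235-63861534 for Tnfsf8, chr17:35205302-35205601 for Lta, chr17:35201958-35202257 for Tnf, chr17:35194257-35194556 for Ltb, chr14:78307994-78308293 for Tnfsf11 and chr15:82224331-82224630 for Tnfrsf13c. That of Ltb is on the plus strand and the others are on the minus strand.
Tnfsf8: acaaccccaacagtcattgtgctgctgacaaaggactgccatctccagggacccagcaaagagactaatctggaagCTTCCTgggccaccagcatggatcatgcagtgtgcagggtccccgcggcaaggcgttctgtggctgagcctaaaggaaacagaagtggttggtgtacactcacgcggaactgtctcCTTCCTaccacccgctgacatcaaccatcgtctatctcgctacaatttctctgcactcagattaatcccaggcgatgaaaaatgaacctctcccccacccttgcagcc
Lta: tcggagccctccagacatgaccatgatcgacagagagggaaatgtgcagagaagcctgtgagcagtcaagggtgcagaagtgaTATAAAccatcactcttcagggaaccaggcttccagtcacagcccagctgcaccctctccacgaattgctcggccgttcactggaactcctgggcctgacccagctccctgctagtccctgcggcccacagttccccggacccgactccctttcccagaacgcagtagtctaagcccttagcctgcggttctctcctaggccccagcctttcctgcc
Tnf: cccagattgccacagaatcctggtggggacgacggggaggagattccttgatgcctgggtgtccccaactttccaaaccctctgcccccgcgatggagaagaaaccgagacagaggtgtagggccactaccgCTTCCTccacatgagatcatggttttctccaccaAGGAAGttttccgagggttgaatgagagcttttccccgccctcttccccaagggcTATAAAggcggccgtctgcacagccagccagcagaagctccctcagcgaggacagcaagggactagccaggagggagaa
Ltb: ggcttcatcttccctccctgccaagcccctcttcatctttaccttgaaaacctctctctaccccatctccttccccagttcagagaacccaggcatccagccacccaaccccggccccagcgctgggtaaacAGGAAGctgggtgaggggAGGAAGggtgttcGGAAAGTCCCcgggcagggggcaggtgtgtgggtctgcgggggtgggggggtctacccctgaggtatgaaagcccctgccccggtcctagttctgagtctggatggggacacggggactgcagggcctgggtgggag
Tnfsf11: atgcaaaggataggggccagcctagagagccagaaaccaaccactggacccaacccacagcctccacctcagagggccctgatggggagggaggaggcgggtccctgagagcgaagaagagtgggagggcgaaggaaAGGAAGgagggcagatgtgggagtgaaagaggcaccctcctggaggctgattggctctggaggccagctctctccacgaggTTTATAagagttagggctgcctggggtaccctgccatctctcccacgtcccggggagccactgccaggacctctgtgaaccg
Tnfrsf13c: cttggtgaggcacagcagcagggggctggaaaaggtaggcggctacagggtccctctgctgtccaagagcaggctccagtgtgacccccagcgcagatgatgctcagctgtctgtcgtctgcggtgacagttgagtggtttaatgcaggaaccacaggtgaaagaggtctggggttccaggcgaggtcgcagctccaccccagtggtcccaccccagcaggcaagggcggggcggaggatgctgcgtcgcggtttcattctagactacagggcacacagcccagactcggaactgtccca

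AGGAAG occurred 2 times in the Tnfsf8 window, 2 times in that of Tnf, 2 times in that of Ltb and 1 time in that of Tnfsf11, and not in those of Lta and Tnfrsf13c. Of the 5 genes that passed, 3 held it, beside 35.4% of all 32851 windows of the same length. Over the 34 members with a window in the table, 18 held it in at least 1 window, where 4 members have several windows. CCGGAA was in 0 of the 5 windows, in 6 of 34 members and in 14.9% of all windows. The NF-kB consensus was in 0 of the 5 windows and once in that of Ltb, in 3 of 34 members and in 4.51% of all windows. TATAAA was in 3 of the 5, those of Lta, Tnf and Tnfsf11, in 7 of 34 members and in 13.6% of all windows. A match describes these letters only.

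Tnfsf8 had the largest change of the 43 members. CD30 ligand is a membrane protein of activated lymphocytes. It was at 9.88, 10.26 and 10.23 log2 units in the knockout samples, against 7.91, 7.96 and 8.002 in the wild-type samples. The lowest knockout sample, sample 1, lay 1.88 log2 units above the highest wild-type sample. The change was 2.16 ± 0.11 (SE; 95% interval 1.90 to 2.43; limma adjusted p = 0.000386). Its receptor gene Tnfrsf8, encoding CD30, was at 7.65, 7.69 and 7.50 in the knockout and 7.60, 7.64 and 7.34 in the wild type, and the groups overlapped (change 0.09, 95% interval -0.15 to 0.33).

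Lta and Tnf, which lie side by side on chromosome 17, both rose. Lymphotoxin alpha is secreted as a trimer that binds both TNF receptors, or is held at the membrane with lymphotoxin beta. Lta was at 10.91, 11.13 and 11.11 in the knockout and at 10.003, 10.04 and 10.20 in the wild type. The groups lay 0.72 log2 units apart, and the change was 0.97 ± 0.086 (SE, limma adjusted p = 0.0029). Tnf was at 11.47, 11.70 and 11.58 in the knockout and at 11.04, 11.11 and 11.13 in the wild type, with every knockout value above every wild-type one. Its change was 0.49 ± 0.071 (SE; 95% interval 0.32 to 0.66; limma adjusted p = 0.0193). This call was lost in 5 of the 6 fits that left out 1 sample, all but that without knockout sample 1 (adjusted p up to 0.098), and with the sample number as a block. Monocytes and macrophages also make TNF, and the myeloid marker values above stand beside this result.

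Ltb, the membrane partner of lymphotoxin alpha and the next gene to Tnf, did not pass. It was at 8.43, 8.42 and 8.35 in the knockout and 8.50, 8.52 and 8.58 in the wild type, narrowly apart and lower in the knockout (change -0.13, 95% interval -0.26 to -0.01, limma adjusted p = 0.404). The difference between the changes of Lta and Ltb was not tested. The genes on both sides of these 3 were also measured. On the Lta side Nfkbil1 differed by -0.04 (adjusted p = 0.93), and beyond Ltb Lst1 differed by 0.06 (adjusted p = 0.924). Besides Tnf, 0 of 8 measured neighbours of Lta passed (4.43% over all genes), with changes between -0.16 and 0.06.

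Tnfsf11 was the only member that fell by limma over these 6 arrays. RANK ligand drives the formation of osteoclasts and is needed for lymph node development. Tnfsf11 was at 10.63, 10.76 and 10.68 in the knockout and at 11.38, 11.54 and 11.50 in the wild type, 0.62 log2 units apart at the nearest. The change was -0.79 ± 0.066 (SE; 95% interval -0.95 to -0.63; limma adjusted p = 0.0024). Its receptor gene Tnfrsf11a, encoding RANK, was at 7.98, 8.10 and 7.76 in the knockout and 7.64, 7.76 and 7.64 in the wild type. Those groups nearly touched (0.0061 log2 units apart), and the change of 0.27 did not pass (adjusted p = 0.352). Tnfrsf11b, the secreted decoy receptor osteoprotegerin, differed by -0.01 (95% interval -0.17 to 0.14). Among 8 measured neighbours of Tnfsf11 on chromosome 14, Dgkh, a diacylglycerol kinase gene, and Vwa8 rose by 0.29 and 0.35 (limma adjusted p = 0.0286 and 0.0413), and the other neighbours did not pass.

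The remaining ligand genes did not pass. Tnfsf13b, the gene of BAFF, was at 7.46, 7.39 and 7.18 in the knockout and at 7.31, 7.35 and 7.53 in the wild type, and the groups overlapped (change -0.05, 95% interval -0.29 to 0.18). Tnfsf15, which lies next to Tnfsf8 and encodes the ligand of the death receptor DR3, was at 7.36, 7.10 and 7.15 in the knockout and 7.20, 7.34 and 7.48 in the wild type (change -0.14, 95% interval -0.38 to 0.11). In all, 0 of 7 measured neighbours of Tnfsf8 passed, beside 4.43% of all genes. Tnfsf10, the gene of the death ligand TRAIL, differed by 0.17, Tnfsf9 by 0.17, Tnfsf14, the gene of LIGHT, by 0.14 and Cd70 by 0.09. Fasl differed by -0.03, Cd40lg by -0.11, Tnfsf4, the gene of OX40 ligand, by -0.17 and Tnfsf18, the gene of GITR ligand, by -0.18. Tnfsf18, Tnfsf14, Tnfsf15, Cd40lg, Cd70 and Fasl lay in the dimmest 40% of probe sets (mean below 7.32 log2 units), where RMA compresses differences; the table has no detection calls.

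**Figure D1:**
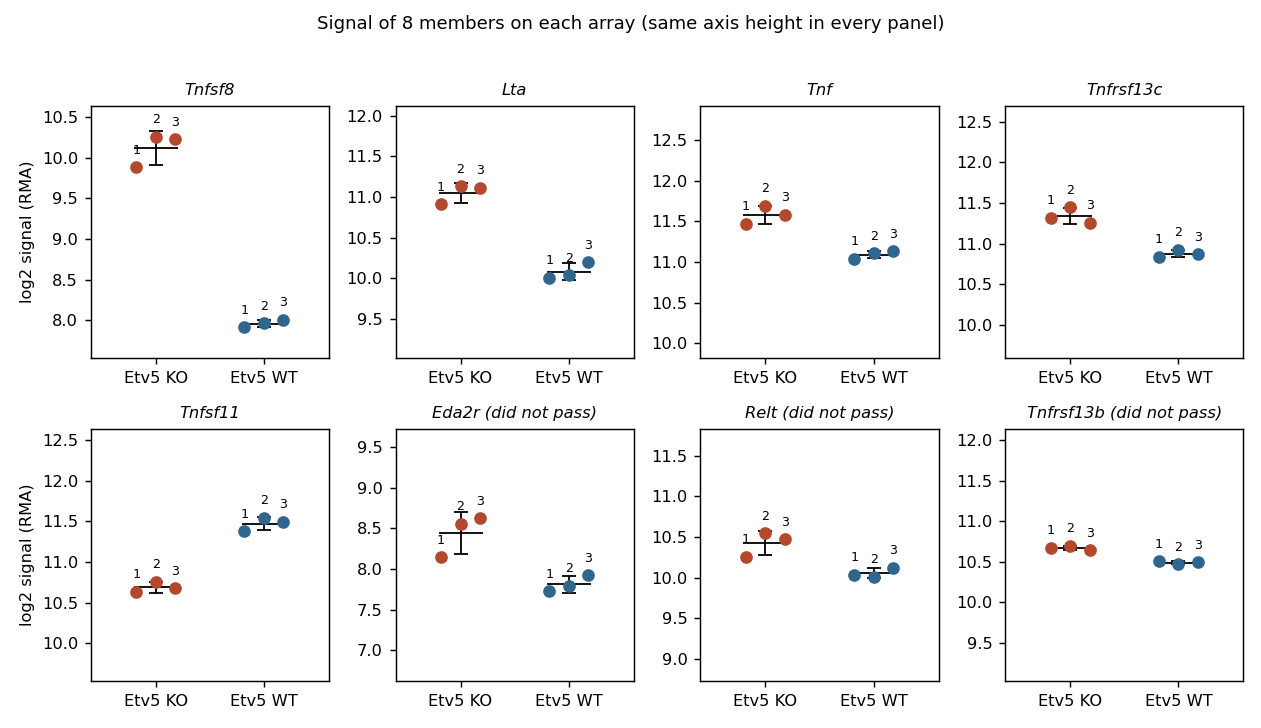
Log2 signal of 8 members on each array, with Etv5 knockout at the left and wild type at the right of each panel; dots are samples with their number, the bar is the mean and the whisker the SD (n = 3), and all panels span the same height. Tnfsf8 knockout samples lie between 9.88 and 10.26, all above the wild-type samples, which end at 8.002; Tnfsf11 lies lower in every knockout sample, and Eda2r, Relt and Tnfrsf13b did not pass.

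Among receptors that B cells use, Tnfrsf13c rose and the other 4 did not pass. BAFF-R, its product, is the receptor through which BAFF sustains maturing B cells. Tnfrsf13c was at 11.32, 11.45 and 11.26 in the knockout and at 10.84, 10.92 and 10.87 in the wild type, and the groups were 0.33 log2 units apart. The change was 0.46 ± 0.066 (SE; 95% interval 0.30 to 0.62; limma adjusted p = 0.018). It lost the call without any 1 of the 3 wild-type samples or without knockout sample 1 (adjusted p up to 0.0945), and with the sample number as a block. Of 6 measured neighbours on chromosome 15, 0 passed, beside 4.43% of all genes.

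The other BAFF receptor genes were close between the genotypes. Tnfrsf13b, which encodes TACI, was at 10.67, 10.70 and 10.64 in the knockout and 10.51, 10.47 and 10.50 in the wild type. All 3 knockout values were above the wild-type ones, by 0.14 log2 units at the nearest, and the change of 0.18 did not pass (95% interval 0.07 to 0.29; limma adjusted p = 0.156). Tnfrsf17, encoding the plasma cell receptor BCMA, was at 7.20, 7.43 and 7.03 in the knockout and at 7.19, 7.33 and 7.06 in the wild type (change 0.02, 95% interval -0.27 to 0.32). Cd40 was at 8.22, 8.11 and 8.03 in the knockout and 8.01, 8.08 and 8.04 in the wild type, with overlapping groups and a change of 0.08 (95% interval -0.08 to 0.23). Cd27, the receptor of the CD70 ligand, was at 6.76, 6.64 and 6.57 in the knockout and at 6.69, 6.67 and 6.73 in the wild type (change -0.04, 95% interval -0.20 to 0.12). The last of these, like Tnfrsf17, was among the dimmest 40% of probe sets.

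None of the 7 receptors with a death domain passed, beside 4.43% of all genes, and 1 had an unadjusted limma p under 0.05, beside 13.4%. That one, Tnfrsf10b, the mouse receptor of TRAIL, was at 9.17, 9.38 and 9.35 in the knockout and at 9.54, 9.46 and 9.50 in the wild type (change -0.20, 95% interval -0.37 to -0.03, adjusted p = 0.322). Fas was dim, at 6.38, 6.42 and 6.35 in the knockout and 6.32, 6.47 and 6.21 in the wild type, with a change of 0.05 (95% interval -0.14 to 0.23). Tnfrsf1a, the TNF receptor with a death domain, was also dim, at 7.17, 7.08 and 6.99 in the knockout and 6.99, 7.25 and 6.97 in the wild type, with overlapping groups (change 0.01, 95% interval -0.22 to 0.24). Tnfrsf21, encoding DR6, differed by -0.04, Tnfrsf25, encoding DR3, by -0.09, Ngfr, the neurotrophin receptor, by 0.06 and Edar, the receptor of ectodysplasin, by -0.07.

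Tnfrsf1b, the TNF receptor without a death domain, did not pass. It was at 10.40, 10.53 and 10.43 in the knockout and at 10.46, 10.42 and 10.48 in the wild type. The 95% interval of its change ran from -0.13 to 0.14. Tnfrsf14, encoding HVEM, which also binds lymphotoxin alpha, differed by 0.13 (95% interval -0.03 to 0.29). Ltbr, the lymphotoxin beta receptor, differed by -0.04 (95% interval -0.24 to 0.15).

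Ligands and receptors were then set side by side over 22 textbook pairs, chosen with the members' values known. The 4 ligands that passed have 6 receptors among the members, and 0 of these passed, beside 4.43% of all genes. Of these receptors, Tnfrsf1a and Tnfrsf11b lay in the dimmest 40% of probe sets. The 1 receptor that passed, Tnfrsf13c, binds the product of Tnfsf13b, which did not.

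**Figure D2:**
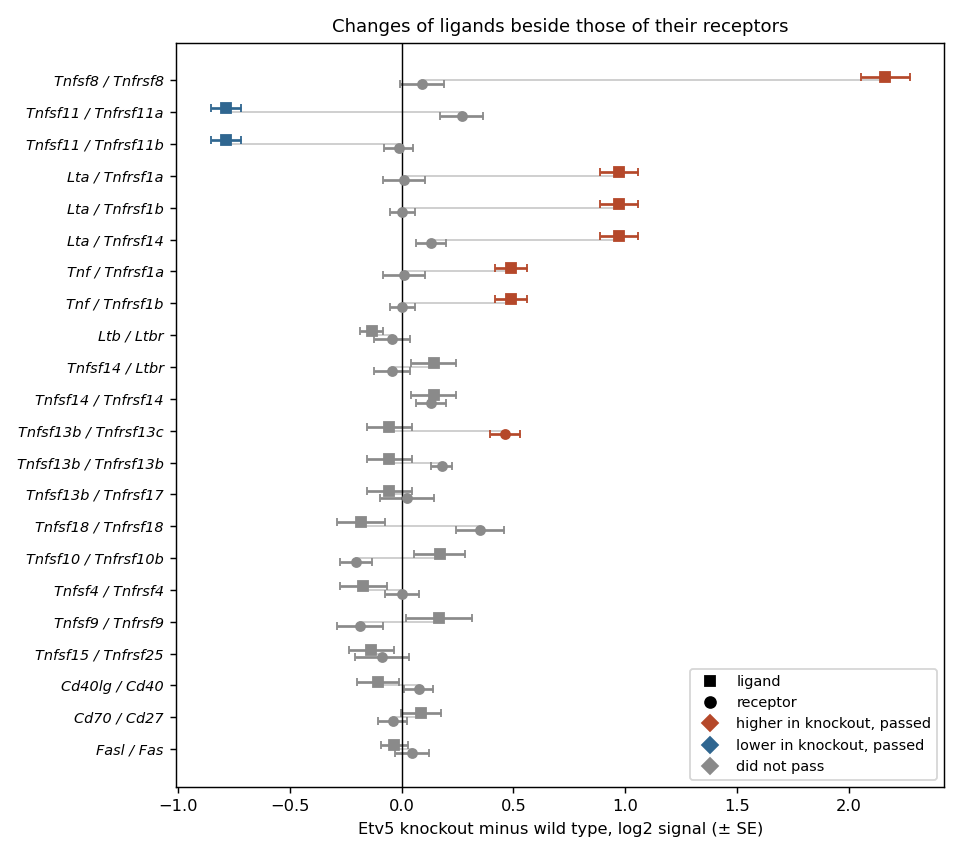
Change of each ligand (squares) and of a receptor it binds (circles), in log2 units of knockout minus wild type with the SE, for 22 pairs; colours mark what passed at an adjusted p of 0.05. Squares of Tnfsf8, Lta, Tnf and Tnfsf11 lie at 2.16, 0.97, 0.49 and -0.79, and the circles of their receptors lie between -0.01 and 0.27.

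Eda2r and Relt were the members nearest to the threshold that did not pass. Eda2r, an X-linked gene for a receptor of the A2 form of ectodysplasin, was at 8.14, 8.56 and 8.62 in the knockout and at 7.72, 7.79 and 7.92 in the wild type. The groups were 0.22 log2 units apart and knockout sample 1 lay nearest to the wild type; the change was 0.63 ± 0.14 (SE, limma adjusted p = 0.0844). Relt, an orphan receptor gene named for its expression in lymphoid tissue, was at 10.26, 10.55 and 10.47 in the knockout and 10.04, 10.01 and 10.13 in the wild type, again with knockout sample 1 the lowest of the 3 (change 0.37 ± 0.087, SE, adjusted p = 0.114). Without knockout sample 1 both passed (adjusted p = 0.0145 and 0.039).

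Of the costimulatory receptors, best known from T cells, 0 of 5 passed, beside 4.43% of all genes. Tnfrsf18, which encodes GITR, was at 9.80, 10.11 and 9.89 in the knockout and 9.59, 9.45 and 9.71 in the wild type, a gap of 0.082 log2 units (change 0.35, 95% interval 0.09 to 0.61, limma adjusted p = 0.237). Its neighbour on chromosome 4, Tnfrsf4, encoding OX40, was at 8.13, 8.24 and 8.35 in the knockout and 8.27, 8.16 and 8.29 in the wild type, with the groups overlapping (95% interval -0.18 to 0.18). Tnfrsf9 differed by -0.19 and Tnfrsf8 by 0.09. The decoy receptor genes Tnfrsf22 and Tnfrsf23, whose mouse products bind TRAIL, and their neighbour Tnfrsf26 differed by -0.04, 0.05 and 0.14. Tnfrsf12a, the receptor of TWEAK, differed by 0.04 and Tnfrsf19, known as TROY, by 0.13.

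Counted without a threshold on p, 13 of 43 members had knockout values that did not overlap the wild-type values, beside 20.5% of all genes. These were the 5 that passed, with gaps of 0.33 to 1.88 log2 units, and 8 that did not pass, with gaps of 0.0061 to 0.22. Of the 8, Eda2r, Relt, Tnfrsf13b, Tnfrsf18, Tnfrsf11a and Tnfrsf19 were higher in the knockout and Tnfrsf10b and Ltb lower. The remaining 30 members had changes between -0.19 and 0.17 and adjusted p of at least 0.507. In 4 of the 4 members that rose, knockout sample 2 had the highest value, as it did in 24 of 43 members and in 54.8% of all genes.

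**Figure D3:**
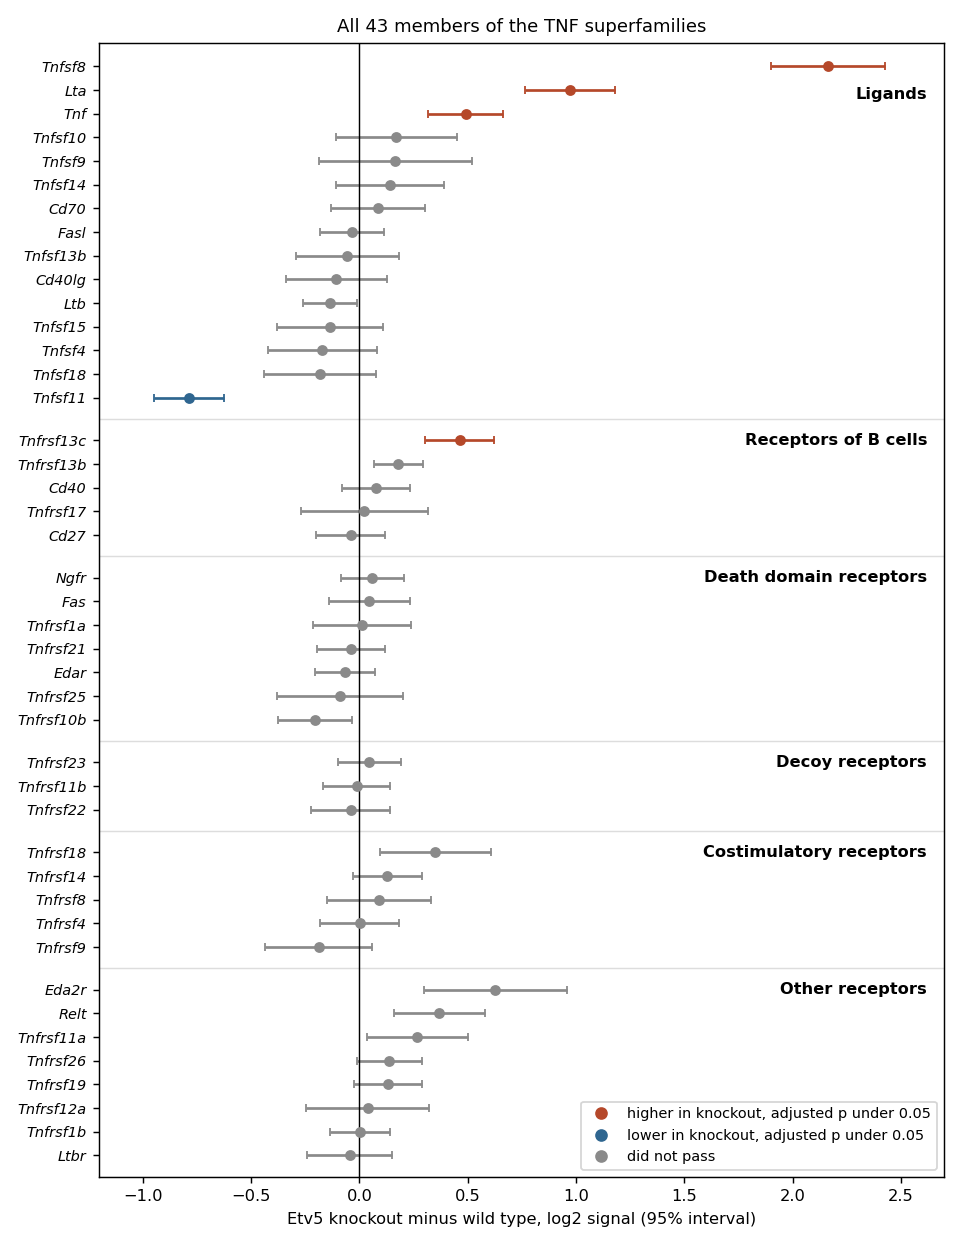
Change of all 43 members in log2 units (knockout minus wild type) with the 95% interval of limma, grouped by role and ordered by size. Tnfsf8, Lta and Tnf among the ligands and Tnfrsf13c among the receptors are marked higher, Tnfsf11 lower, and the other 38 did not pass.

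Around the members that passed, 29 neighbouring protein-coding genes were measured, most within 4 places along the chromosome. Of these 2 passed, Dgkh and Vwa8 near Tnfsf11, beside 4.43% of all genes. The differences between neighbouring genes' changes were not tested.

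**Figure D4:**
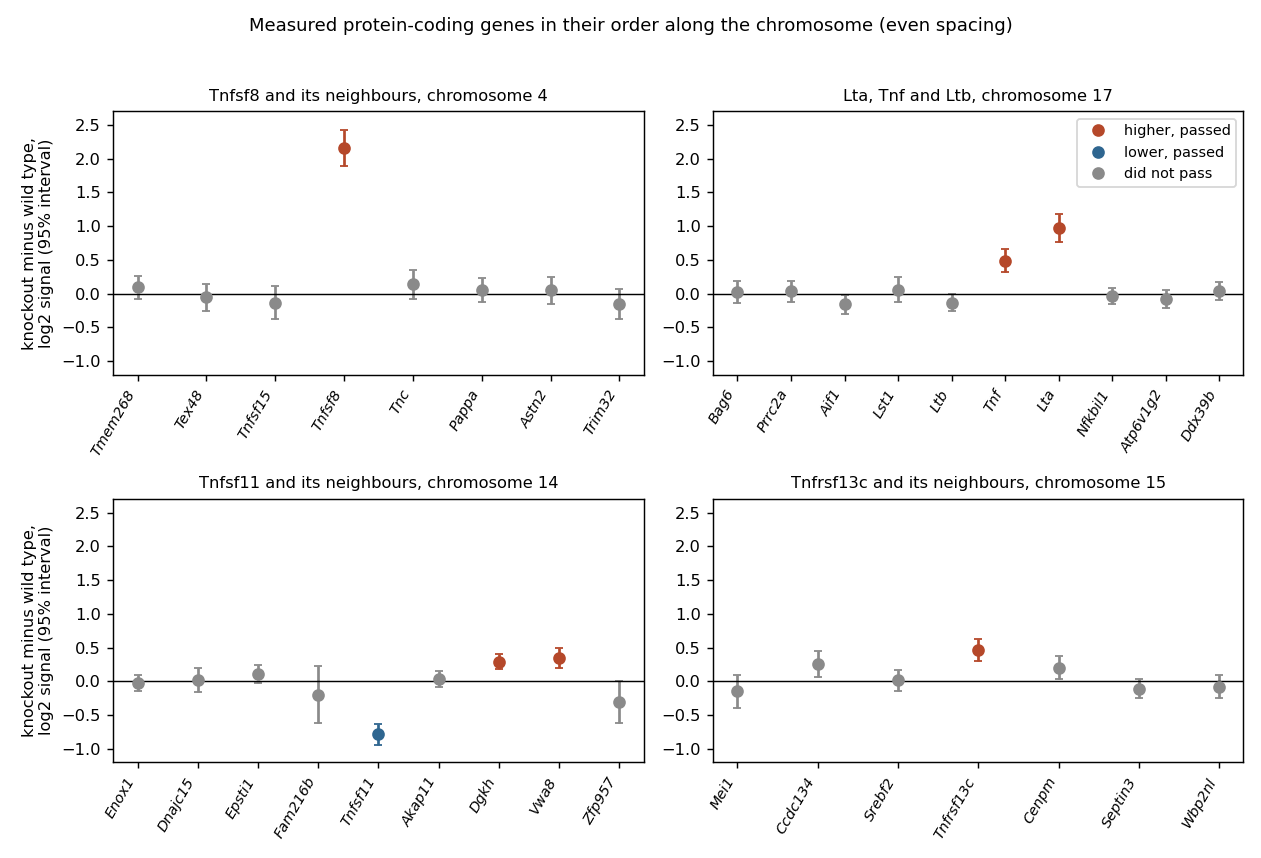
Change in log2 units (knockout minus wild type, 95% interval) of measured protein-coding genes in their order along 4 chromosomes, evenly spaced. Tnfsf8 stands at 2.16 between neighbours from -0.15 to 0.14, and Lta and Tnf stand above neighbours from -0.16 to 0.06.

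Downstream of the receptors, 7 of 57 measured genes passed, 3 higher and 4 lower, beside 4.43% of all genes; with quantile normalization 5 were higher and 3 lower. The count was 2, Bcl2l1 and Tnfaip3, without any 1 of the wild-type samples or knockout sample 3. It was 3 without knockout sample 2 or with the sample number as a block, and 4 without knockout sample 1. The list holds adaptors and death pathway genes, NF-kB pathway genes and NF-kB targets, and its median change was 0.05 log2 units. Those that fell were Mlkl, Ripk3, Tnfaip3 and Tnfaip8, and those that rose were Bcl2l1, Otulin and Birc3.

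Ripk3 and Mlkl, which act in the last steps of necroptosis, fell. Ripk3, the kinase that activates MLKL, was at 9.54, 9.87 and 9.80 in the knockout and at 10.38, 10.25 and 10.36 in the wild type, so the groups lay apart (change -0.59 ± 0.097, SE, limma adjusted p = 0.03). Mlkl, which encodes the protein that breaches the membrane, was at 6.88, 7.19 and 7.0 in the knockout and 7.59, 7.70 and 7.79 in the wild type (change -0.67 ± 0.097, SE, adjusted p = 0.0194). Each lost its call in 5 of the 6 fits that left out 1 sample: Ripk3 in all but that without knockout sample 1 and Mlkl in all but that without knockout sample 2 (adjusted p up to 0.135 and 0.0931). Ripk3 also lost it with the sample number as a block.

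The other adaptor and death pathway genes that passed were Tnfaip3, Otulin and Birc3. Tnfaip3, encoding the NF-kB inhibitor A20, was at 8.88, 8.91 and 8.92 in the knockout and at 9.33, 9.40 and 9.42 in the wild type, clearly apart (change -0.48 ± 0.05, SE, limma adjusted p = 0.00541). Otulin, which removes linear ubiquitin chains, was at 10.63, 10.65 and 10.65 in the knockout and at 10.31, 10.33 and 10.26 in the wild type (change 0.34, adjusted p = 0.0163). Birc3, a ubiquitin ligase of receptor complexes, was at 10.11, 10.18 and 10.11 in the knockout and 9.84, 9.81 and 9.81 in the wild type (change 0.31, adjusted p = 0.0264). Otulin and Birc3 lost their calls in all 6 fits made without a sample (adjusted p up to 0.0896 and 0.131) and with the sample number as a block, and Tnfaip3 kept its call in all 14 alternatives. The remaining 17 of 22 genes of that list did not pass, among them Birc2 (change -0.13), Traf2 (0.07), Cyld (0.06) and the linear ubiquitin ligase genes Rnf31 (-0.02), Rbck1 (-0.15) and Sharpin (0.11).

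None of 17 measured NF-kB pathway genes passed, beside 4.43% of all genes, and 2 had an unadjusted limma p under 0.05, beside 13.4%. These were Nfkbia, the inhibitor that NF-kB itself induces (change 0.23, adjusted p = 0.129), and Rel, a subunit abundant in lymphocytes (change 0.17, adjusted p = 0.248). Nfkb2, whose product is processed in the alternative pathway, came next (change 0.18, adjusted p = 0.533). Nfkbia passed with quantile normalization and with robust eBayes with a trend. Of 19 NF-kB targets, Bcl2l1, encoding the survival protein BCL-XL, was at 10.22, 10.33 and 10.24 in the knockout and at 9.57, 9.59 and 9.73 in the wild type, with the groups apart (change 0.63 ± 0.065, SE, limma adjusted p = 0.00499). Tnfaip8, a gene induced by TNF, was at 11.05, 10.98 and 10.96 in the knockout and 11.26, 11.36 and 11.28 in the wild type (change -0.30, limma adjusted p = 0.0429). A further Tnfaip8 probe set differed by -0.11 and did not pass (adjusted p = 0.886), and the call was lost in each fit without 1 sample, with the sample number as a block, with quantile normalization and with the mean of its probe sets. The remaining 17 targets did not pass, and the chemokine receptor gene Ccr7 came nearest (change 0.31, limma adjusted p = 0.0599). Of the 19 targets, 8 lay in the dimmest 40% of probe sets, where RMA compresses differences. Ccr7 passed without the dimmest 40% of probe sets, with single-gene probe sets only, with quantile normalization, with array weights and without knockout sample 1.

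**Figure D5:**
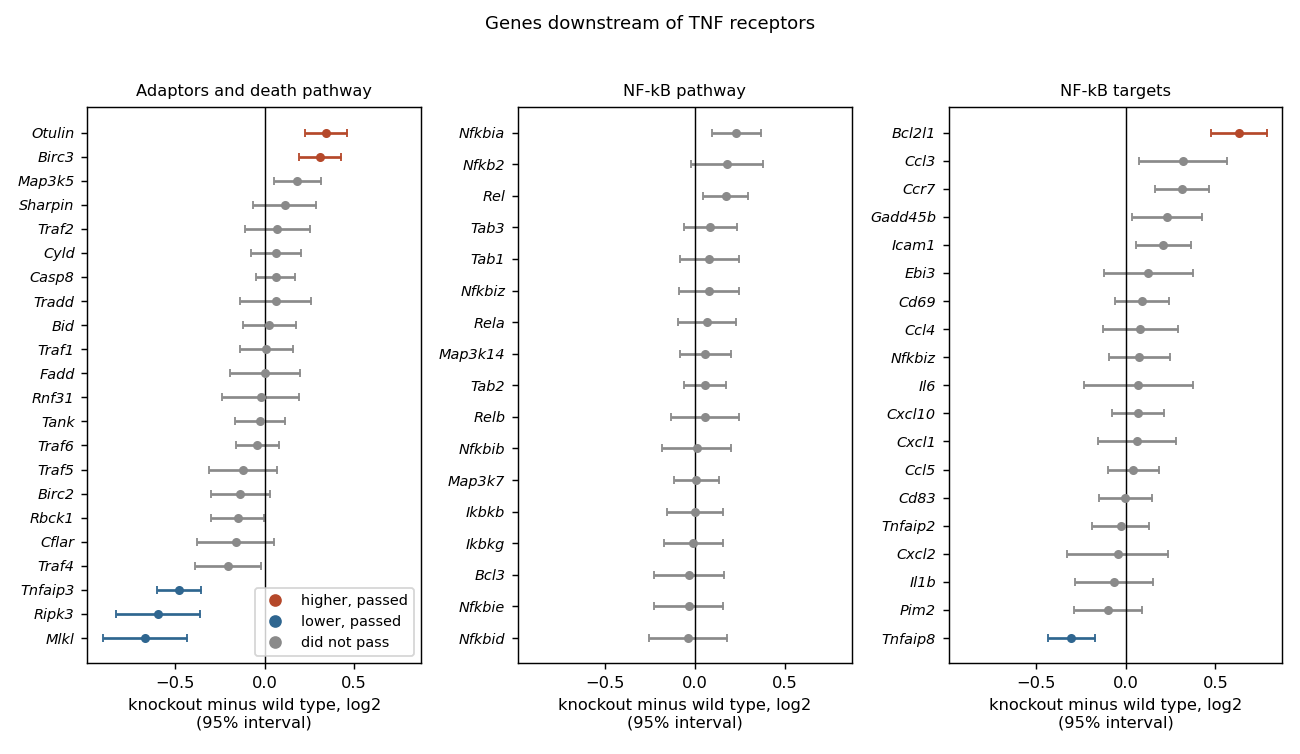
Change in log2 units (knockout minus wild type, 95% interval) of measured genes downstream of TNF receptors in 3 lists; Nfkbiz stands in both NF-kB lists. Mlkl, Ripk3 and Tnfaip3 lie between -0.67 and -0.48, and the NF-kB pathway genes lie between -0.04 and 0.23 with none passing.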

How the data were processed

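The authors' deposited values are log2 signals, with 35556 probe sets in rows and 1 column for each sample. Per the submitters' processing notes, RMA and Partek 6.5 were used. RMA corrects background, normalizes by quantiles and summarises each probe set, and it compresses differences between dim signals. No source used here gives its settings. Values between 2.58 and 14.7 showed the log2 scale. There are no detection calls, and the number of arrays limits the precision.

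Probe sets were named through the platform's annotation table: 21789 had 1 gene symbol, 1621 several and 12146 none listed there. A probe set that joins several genes of the family was left out, so Tnfsf12 and Tnfsf13 were not analysed here. All 43 members matched the gene table of GRCm38.p6 by gene identifier, with 0 symbols changed; it gave chromosomes and gene order. The probe set with the highest mean over 6 arrays stood for a gene.

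Knockout minus wild type was fitted on all 6 samples with limma 3.58.1 under R 4.3.3, using lmFit and eBayes without a trend or filter, with Benjamini-Hochberg adjustment over all 35556 probe sets and a threshold of 0.05. An exact permutation test of 3 against 3 cannot go below p = 0.10 and was not used. By rule, values per sample were given for members that passed and for 11 chosen members of interest in B cells and TNF signalling. Such values were also given for the 4 of smallest p among those that did not pass and for the 3 brightest. Others were added where neighbours or receptors of these, after their values were seen. Tnfrsf10b, the death domain receptor with an unadjusted limma p under 0.05, was likewise added after its values were seen. All downstream genes that passed, and the 3 of smallest p in a list, were named. Members, lists and pairs were chosen with earlier results of these data known. Alternatives tried were a fit blocked on sample number, a filter on the dimmest 40%, a restriction to single-gene probe sets, quantile normalization, centring on the median, robust eBayes with a trend, array weights, averaging of a gene's probe sets, a threshold of 0.1 and the omission of each sample in turn.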

Additional observations from a re-analysis of the deposited data

How the results depend on the processing

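Tnfsf8, Lta, Tnfsf11, Tnfaip3 and Bcl2l1 kept their direction and call in all 14 alternative fits, and no called change of the 24 genes followed reversed. Of 332 combinations of gene and alternative fit, 279 kept their side of the threshold, 45 lost a call and 8 gained one. The members that passed numbered 5. Leaving out 1 sample gave 3 to 6; 3 members, Tnfsf8, Lta and Tnfsf11, passed without any 1 of the wild-type samples. The downstream genes that passed numbered 7, and leaving out 1 sample gave 2 to 4, with 2 genes, Bcl2l1 and Tnfaip3, passing without any 1 of the wild-type samples or knockout sample 3, 3 without knockout sample 2 and 4 without knockout sample 1. With the sample number as a replicate block, 3 members and 3 downstream genes passed, and 544 probe sets in place of 1095. Same-numbered samples' deviations from their group means correlated at -0.12, 0.016 and 0.26 across probe sets. Those of differently numbered samples ran from -0.35 (knockout 3, wild type 2) to 0.31 (knockout 1, wild type 2). These correlations are not independent of each other, and the numbers were not taken to pair the samples. Eda2r passed with single-gene probe sets only, with array weights and without the dimmest probe sets, and Relt with the first 2 of these and with quantile normalization. Among the 24 genes followed, 12 did not pass, and 6 of these changed sign in some alternative. Which causes lie behind these shifts was not tested.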

Other observations

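RNA-binding proteins known to act on TNF mRNA, and enzymes that shed or cut TNF superfamily ligands, were looked up after the members' values were known. Of 11 RNA-binding genes, 0 passed limma and 1 had an unadjusted p under 0.05, beside 4.43% and 13.4% of all genes. That gene was Rc3h2, a Roquin paralogue, with a change of 0.16 (limma adjusted p = 0.215). Zfp36, the gene of tristetraprolin, which destabilises TNF mRNA, differed by 0.03, Zc3h12a, encoding the ribonuclease regnase-1, by -0.04 and Elavl1 by -0.02. Of 7 processing genes, 0 passed and 1 had an unadjusted limma p under 0.05, beside the same shares of all genes. It was Adam10, with a change of 0.13 (limma adjusted p = 0.432). Adam17, the gene of the protease that releases TNF, differed by 0.10 (adjusted p = 0.662) and Rhbdf2, whose product brings that protease to the surface, by -0.20 (adjusted p = 0.567).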
